A study of Homo sapiens with 24 samples.

Results

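The response of chondrocytes to sorbitol was compared between genotypes in 16 of the 24 RNA-seq libraries of the series, 4 from each of 4 groups. All came from T/C-28a2 cells, an immortalised human chondrocyte line, and were grown either in isotonic media (Ctr) or in the same media with 100 mM sorbitol added for 7 days (Sor). The WT cells were the parental line, with no transfection named in the labels of these groups, and the WNK2- cells were a CRISPR-derived line, isolated as a single clone, that lacks exon 2 of WNK2. A genotype difference therefore cannot be told apart from any other difference between that clone and the parental cells. For each gene the quantity reported is the difference of differences: the log2 change with sorbitol in WNK2- cells (WNK2- Sor against WNK2- Ctr) minus the log2 change with sorbitol in WT cells (WT Sor against WT Ctr). It is called the interaction here. A positive interaction means that the level with sorbitol relative to isotonic media was higher in WNK2- cells than in WT cells, and a negative one that it was lower.

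WNK kinases sense high osmolarity and low chloride, and they activate the kinases SPAK and OSR1, which phosphorylate the sodium, potassium and chloride cotransporters that restore cell volume. Over days of hyperosmotic stress, cells also change transcription, in part through the tonicity-responsive factor NFAT5, and gather organic osmolytes such as sorbitol, betaine and taurine. Articular chondrocytes live in a hyperosmotic matrix, and their output of collagens, proteoglycans, proteases and inflammatory mediators is known to change with osmolarity.

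WNK2 itself (ENSG00000165238, GRCh38 chromosome 9, 93184916 to 93320572, plus strand) did not follow the labels in several groups. In CPM, counts scaled by each library's total, the 4 libraries labelled WT Ctr had 159, 75.04, 115 and 181, while the WT Sor libraries ranged from 15.7 to 18.02. The WNK2- Ctr libraries ranged from 20.9 to 22.3 and the WNK2- Sor libraries from 17.3 to 23.5. Every library labelled WT Ctr was thus above every WT Sor and WNK2- library, whereas the 2 WNK2- groups overlapped each other. The libraries labelled WT Sor all lay below the WNK2- Ctr libraries. Of the groups of WT cells transfected with WNK2, the libraries labelled WNK2 trans Ctr had only 9.13 to 15.7 CPM, and those labelled WNK2 trans Sor had 131 to 211. Which of these groups departs from its label cannot be told from WNK2 levels alone, and no group was relabelled. WT Ctr and WT Sor are written below as the labels of those libraries, and each main result is also given with the libraries labelled WNK2 trans Ctr in place of those labelled WT Ctr, called the alternative isotonic group. If the labels hold, WT Sor differs from that group in transfection as well as in sorbitol. A change in WT cells or an interaction given with the alternative isotonic group then cannot tell sorbitol from transfection. The log2 change with sorbitol in WNK2- cells uses none of these WT groups. Its calls do depend on them, since the fit shares the spread of all its groups. They numbered 3110 with the libraries labelled WT Ctr in the fit and 4203 with the alternative isotonic group. WNK2 counts take in all of its exons and do not show whether exon 2 is present in WNK2- cells.

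**Figure D1:**
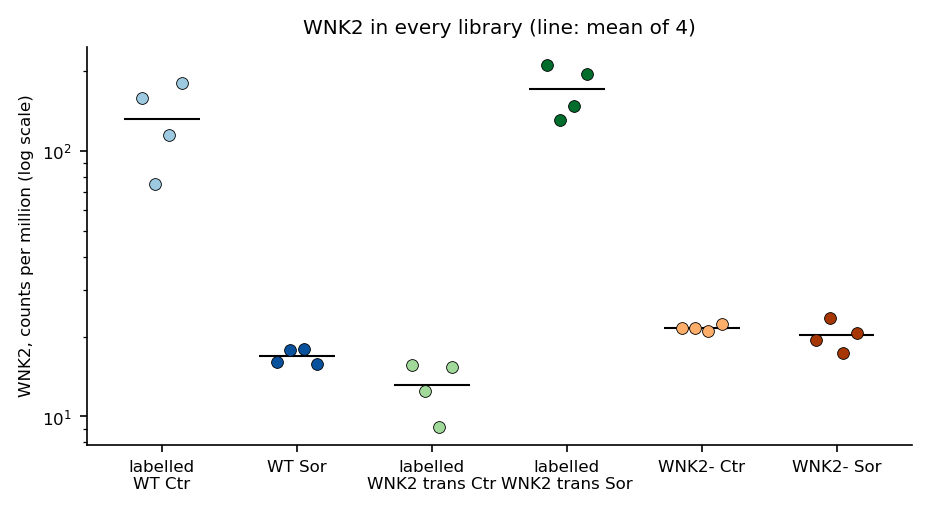
WNK2 in each of the 24 libraries, in CPM on a log axis, by labelled group (points: libraries; lines: means of 4). The 4 libraries labelled WT Ctr sit between 75.04 and 181, beside those labelled WNK2 trans Sor, and the other groups lie at 23.5 or below.

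Total counts ran from 14153002 to 17588934 in the WT libraries and from 18578564 to 25664619 in the WNK2- libraries, so genotype and depth cannot be told apart, although thinning every library to the smallest total changed the number of genes called only from 2010 to 1810. The libraries labelled WT Ctr also differed most among themselves: the chi-square per degree of freedom between pairs of libraries was 19.6 to 64.3 there, whereas WT Sor pairs had 2.30 to 5.14, and the WNK2- pairs had 3.68 to 19.0 (Ctr) and 6.12 to 25.8 (Sor). Of the defining genes of chondrocytes, SOX9 had 0 counts in all 16 libraries, COL2A1 and ACAN reached at most 5.89 and 6.99 CPM, and HAPLN1 was the highest of the list. The 14 chondrocyte markers summed to 105 to 118 CPM in the WT libraries and to 28.8 to 32.5 CPM in the WNK2- libraries. Most of that difference lay in HAPLN1, with means of 78.4 and 68.2 CPM in WT Ctr and Sor. Its means in WNK2- Ctr and Sor were 13.4 and 18.6. Not every marker was lower in WNK2- cells: COL11A2 had 3.35 CPM in WT Ctr and 5.01 in WNK2- Ctr. In bulk libraries, fewer cells with a marker and less of its RNA per cell cannot be told apart. CD68 also had 0 counts throughout. Whether the RNA of SOX9 and CD68 was absent or was missed by the annotation or the counting was not tested. The study measured SOX9 in this cell line by quantitative PCR, and it gives SOX9 as undetected in its RNA-seq. The chondrocyte marker sum includes SOX9 and the leukocyte marker sum includes CD68, so both sums are uncertain to that extent. Of the 65 genes named by the rule that have a position in GENCODE 29, 34 overlap another annotated gene, 29 of them one on the opposite strand (MMP3 and WTAPP1, RUNX2 and SUPT3H). Whether strand was used in counting is not given in the sources used here, so the counts of such genes are uncertain to that extent.

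The response to sorbitol differed between the genotypes for 2010 of 16144 genes tested (12.5%; edgeR's quasi-likelihood test, Benjamini-Hochberg adjusted p under 0.05). The interaction was positive for 928 (5.75%) and negative for 1082 (6.7%), and it was at least 1 on the log2 scale in either direction for 619. Without the library labelled WT Ctr replicate 1 the count was 3288, and without WNK2- Sor replicate 3 it was 1277. In the separate comparisons, sorbitol changed 4824 genes in WT cells (29.9%, with 2340 or 14.5% higher and 2484 or 15.4% lower) and 3110 in WNK2- cells (19.3%, with 1708 or 10.6% higher and 1402 or 8.68% lower). These shares are the background for each count of list members below. A spline correction of each library for GC content and for gene length moved the balance: 1804 interactions were then positive and 1225 negative (59.6% positive, against 46.2% above), and the sorbitol calls became 1955 higher and 4736 lower in WT and 1884 higher and 3266 lower in WNK2- cells. Of the 1402 genes called in both genotypes, 1211 changed in the same direction (676 up and 535 down) and 191 in opposite directions. The log2 changes in the 2 genotypes, which share no library, correlated across the 16144 genes with Pearson's r = 0.414 and Spearman's rho = 0.326. Genes are not independent replicates, and no test is attached to these values.

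The genes with an interaction fell into several patterns, which were counted only with the libraries labelled WT Ctr as the WT isotonic group. The most frequent was a change called in WT cells and not in WNK2- cells, with 974 genes (497 higher and 477 lower in WT). A change called in WNK2- cells and not in WT cells was found for 613 (285 higher and 328 lower). Opposite called changes were found for 191, with 128 rising in WT cells and falling in WNK2- cells and 63 doing the reverse. A further 121 changed in the same direction in both (83 up and 38 down), and 111 were called in neither genotype alone. For 1393 genes (69.3% of those with an interaction) the estimated changes had opposite signs, called or not.

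**Figure D2:**
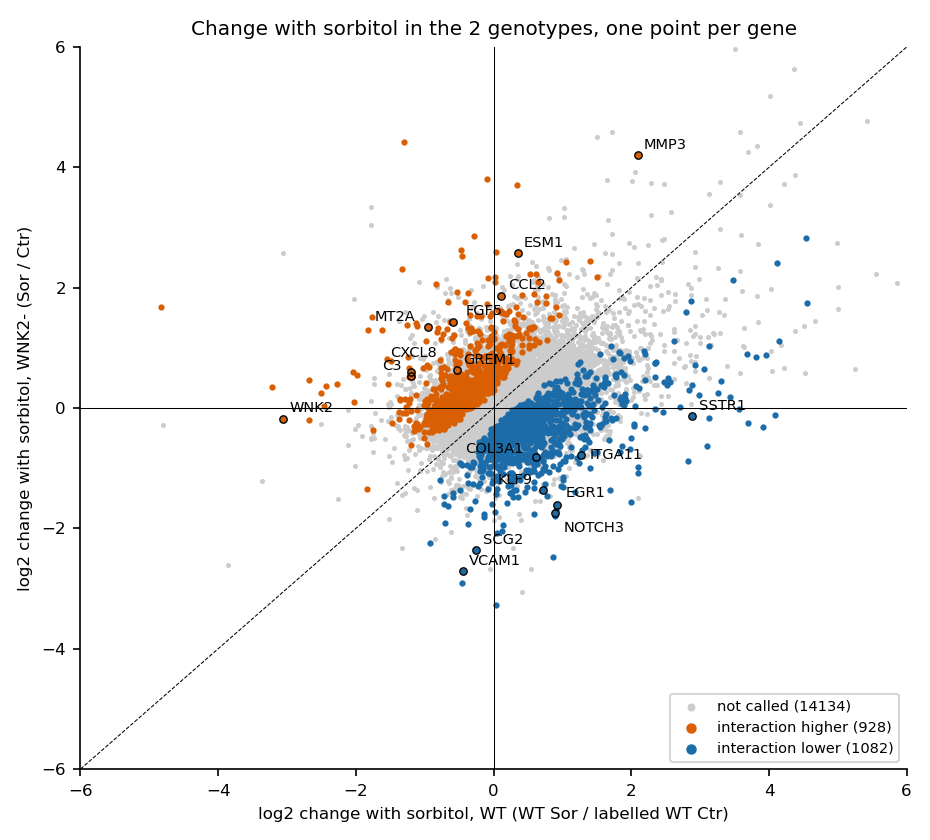
Log2 change with sorbitol in WT cells (horizontal, WT Sor against libraries labelled WT Ctr) and in WNK2- cells (vertical) for each gene tested. Points above the dashed line of equal change have a positive interaction; 928 called ones are orange, 1082 called negative ones are blue, and 5 genes lie outside the axes at 6.

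With the alternative isotonic group the interaction was called for 1307 of 16289 genes tested (8.02%, with 506 or 3.11% positive and 801 or 4.92% negative). Of the 2010 genes called with the libraries labelled WT Ctr, 617 (30.7%) were called with the same sign there, 226 of them positive and 391 negative, which is 47.2% of the 1307. A called interaction of the opposite sign was found for 37, and the estimate had the opposite sign for 245. Among the 617, sorbitol also changed 393 in WNK2- cells: 146 with a positive interaction rose there and 230 with a negative one fell. In the fit with the alternative isotonic group, sorbitol changed 4238 genes in WT cells (2163 higher and 2075 lower). It changed 4203 in WNK2- cells (2168 higher and 2035 lower). These 2 counts were close, unlike those with the libraries labelled WT Ctr. The change in WT cells itself was called in opposite directions by the 2 isotonic groups for 147 genes and in the same direction for 2138. The rule given with the methods took only called genes, apart from those the study discussed. Of the 66 genes it named, 60 had a called interaction, a count largely set by that rule, and 31 of these were called with the same sign under both isotonic groups. One, CXCL8, was called with opposite signs, and 28 were called only with the libraries labelled WT Ctr. Both interactions use the same WNK2- and WT Sor libraries, so they are not independent. The rule named genes by p, by size, by opposite changes, as leading members of each gene list and as genes the study itself discussed; genes named below only as further called members of a list were chosen after their values were seen.

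**Figure D3:**
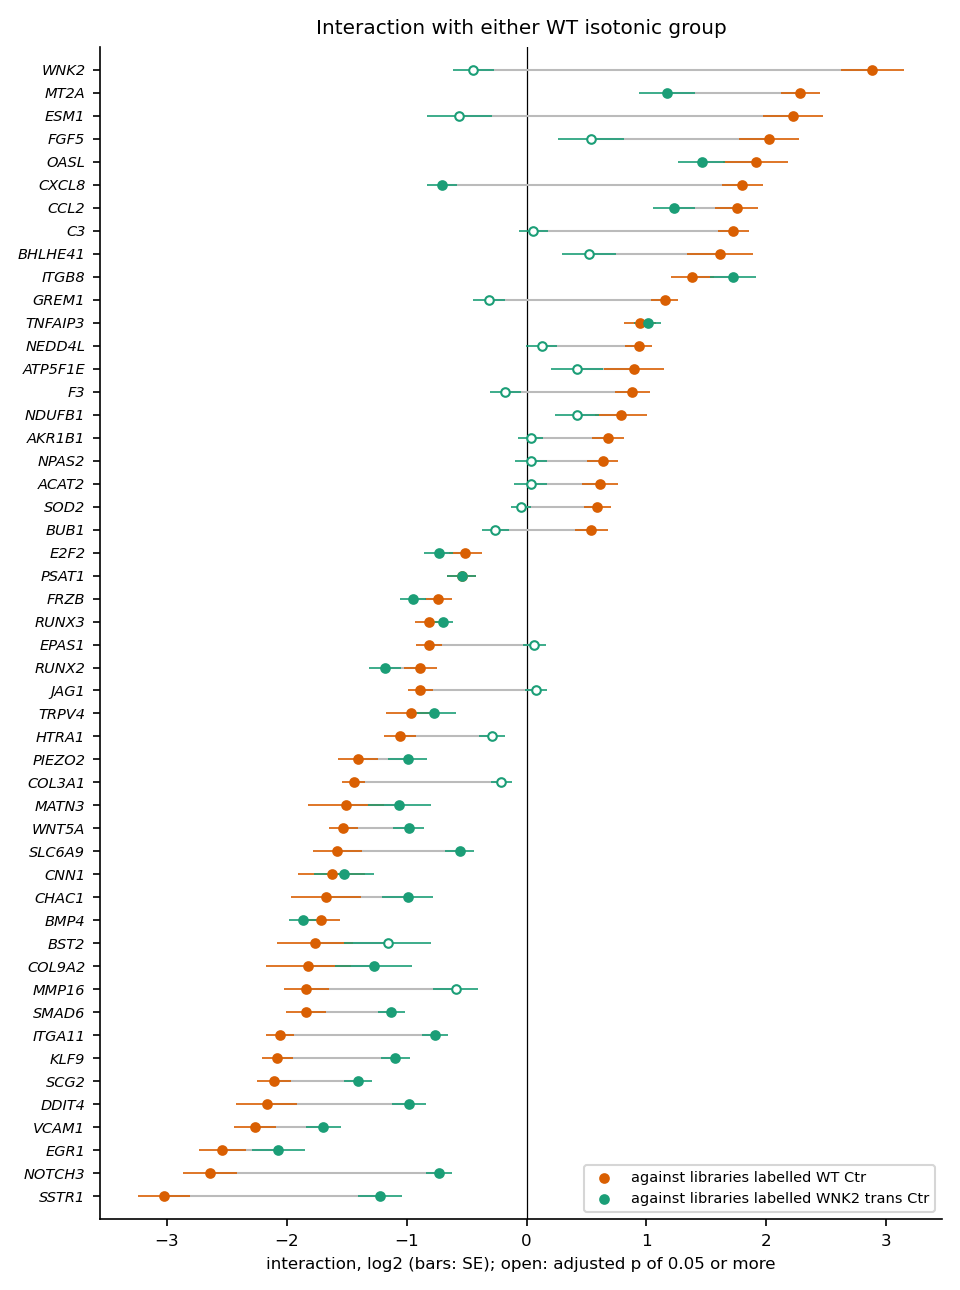
Interaction (log2, horizontal; bars are standard errors) of 50 named genes, computed with the libraries labelled WT Ctr (orange) or WNK2 trans Ctr (green) as the WT isotonic group. Filled points passed the adjusted p of 0.05. WNK2, ESM1, CXCL8 and GREM1 lie right of 0 in orange and left of it in green, whereas EGR1, BMP4, ITGB8 and TNFAIP3 have both values close together.

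Within the WNK network, which holds the kinases, their targets and the cotransporters they control, 4 of 17 tested genes had a positive and 2 a negative interaction (35.3% called, against 12.5% of all genes), with a median of 0.01 against -0.0046 over all genes. Against the alternative isotonic group 0 were positive by edgeR (2 at an unadjusted p under 0.05) and 2 negative. Normalized WNK2 counts were 3165, 1476, 2183 and 3478 in the libraries labelled WT Ctr and 296, 326, 326 and 289 in WT Sor. They were 425, 412, 396 and 426 in WNK2- Ctr and 348, 429, 318 and 376 in WNK2- Sor. The interaction of 2.88 (SE 0.26, adjusted p = 8.91e-07) came from the libraries labelled WT Ctr and WT Sor: the change with sorbitol was -3.06 in WT cells and -0.17, which did not pass the test, in WNK2- cells. With the alternative isotonic group it was -0.44 and did not pass.

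The paralogues WNK1 and WNK3 gave interactions of 0.01 (SE 0.14, adjusted p = 0.986) and 0.08 (SE 0.20, adjusted p = 0.842), neither of which passed, and their Ctr and Sor libraries overlapped in both genotypes. WNK4 rose with sorbitol in both genotypes, from 428 ± 67.99 to 805 ± 18.7 normalized counts (mean ± SD, n = 4) in WT and from 599 ± 19.1 to 814 ± 34.2 in WNK2- cells, an interaction of -0.47 (SE 0.13, adjusted p = 0.0268). That call was lost without any 1 of 4 libraries, among them WT Sor replicate 4 (-0.47, adjusted p = 0.0506) and WNK2- Sor replicate 3 (-0.46, adjusted p = 0.0576), over a range of 0.00744 to 0.0576 when each library was left out. NEDD4L, a ubiquitin ligase that removes ion channels from the membrane, rose in WNK2- cells from 3259.8, 3280.0, 3256 and 3337 to 6429, 5839, 6316 and 6176, without overlap. The WT groups, at 1437 ± 126 and 1418 ± 123, overlapped. Its interaction was 0.93 (SE 0.11, adjusted p = 2.08e-05) with the libraries labelled WT Ctr and 0.13, not passing, with the alternative isotonic group. The remaining called members were STK39, the kinase SPAK itself (0.43), CAB39L, a scaffold of that kinase (0.68), and the potassium-chloride cotransporter SLC12A5 (-0.77), of which SLC12A5 alone passed with the alternative (-0.96).

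Osmolyte transport and tonicity-response genes included 4 with a positive and 2 with a negative interaction among 20 tested (median -0.06, and 0.29 with GC content and length corrected). AKR1B1, the aldose reductase that makes sorbitol from glucose and a known target of NFAT5, had 9342, 10352, 7242 and 7428 normalized counts in the libraries labelled WT Ctr and 23743, 24263, 24480.2 and 24447 in WT Sor. In WNK2- cells it had 11192, 10537, 10314 and 9638 in Ctr and 47675, 46560.2, 46313 and 47442 in Sor. It rose in both genotypes without overlap, by 1.50 and 2.17 on the log2 scale, and the larger rise in WNK2- cells gave an interaction of 0.68 (SE 0.13, adjusted p = 0.00255). Against the alternative isotonic group the interaction was 0.03 and did not pass. SLC6A9, a glycine transporter, rose in WT cells from 552 ± 163 to 1401 ± 79.2 and measured 645 ± 11.1 and 549 ± 53.5 in WNK2- Ctr and Sor, an interaction of -1.58 (SE 0.21, adjusted p = 5.17e-05) that also passed with the alternative isotonic group (-0.56). SLC7A5, a transporter of large neutral amino acids, was the other negative one (-0.71, alternative -1.01, called). The remaining positive ones were SORD, the dehydrogenase that turns sorbitol into fructose (0.47, alternative 0.25, not passing), the chaperone HSPA1B (0.56, alternative 0.46, called) and TXNIP, an inhibitor of thioredoxin (0.55, alternative 1.32, called).

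Among 19 volume-regulated channels and osmosensors, 0 interactions were positive and 5 negative (edgeR; for the positive side, 1 at an unadjusted p under 0.05 and 0 by DESeq2). The median interaction was -0.25 (median change with sorbitol 0.31 in WT and 0.03 in WNK2- cells). TRPV4, a calcium channel through which chondrocytes sense osmotic and mechanical stimuli, had 306, 240.2, 244 and 283 and 272, 228, 236 and 214 normalized counts in the 2 WT groups, which overlapped. It fell in WNK2- cells from 205, 206, 228 and 217 to 88.8, 122, 67.1 and 109.9, with no overlap, giving an interaction of -0.97 (SE 0.21, adjusted p = 0.0051). PIEZO2, a mechanically gated channel, fell in WNK2- cells from 3665 ± 562 to 1689 ± 105 and had 5648 ± 1062 and 6903 ± 312 in WT Ctr and Sor (interaction -1.41, SE 0.17, adjusted p = 2.33e-05). Both passed with the alternative isotonic group as well, at -0.77 and -0.99. The other negative members were KCNK2, a mechanically gated potassium channel (-3.05, alternative -0.30, not passing), and the tweety family members TTYH2 (-0.95, alternative -0.54, not passing) and TTYH3 (-0.99, alternative -0.42, called).

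Cytokines and chemokines, the secreted mediators of inflammation, had 8 positive and 2 negative interactions among 23 tested genes (43.5% called, against 12.5% of all genes), and NF-kB subunits and feedback genes 5 and 0 among 21 (23.8% called, edgeR; no negative one at an unadjusted p under 0.05 or by DESeq2). The median interactions were 0.42 and 0.22. For the cytokines the median change with sorbitol was 0.11 in WT and 0.60 in WNK2- cells. These counts depend on the isotonic group: with the alternative one, 2 cytokines were positive and 7 negative (median 0.05), and 1 NF-kB gene was positive and 3 negative (median -0.0031). The neutrophil chemokine CXCL1 gave 1.14 and the colony-stimulating factor CSF3 1.34, and both were called with the opposite sign with the alternative (-1.22 and -1.22). CSF2, which drives granulocytes and macrophages, gave 2.45 and then -0.05, not passing, whereas the chemokine CXCL16 passed both ways (0.80 and 0.81). The negative members were CXCL12, which retains stem cells in their niche (-1.65), and CSF1, the macrophage growth factor (-0.51), and neither passed with the alternative (-0.35 and -0.02).

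CCL2, a chemokine that attracts monocytes, had 863, 995, 819 and 700.1 normalized counts in the libraries labelled WT Ctr and 851, 932, 979.7 and 892 in WT Sor, which overlapped. In WNK2- cells it rose from 125, 164, 141 and 122 to 554, 402, 579 and 479.7, so that the level stayed below that of WT cells in both media. The interaction was 1.75 (SE 0.18, adjusted p = 3.72e-06), and 1.23, also called, with the alternative isotonic group. TNFAIP3, which encodes the NF-kB inhibitor A20, rose in both genotypes, from 511 ± 55.01 to 655 ± 17.7 in WT and from 215 ± 19.97 to 531 ± 20.6 in WNK2- cells (interaction 0.95, SE 0.13, adjusted p = 0.000103, alternative 1.01, called). CXCL8, the neutrophil chemokine interleukin-8, is the named gene whose call turned. It had 1210.3, 1915, 1559 and 1339 in the libraries labelled WT Ctr, 593, 672, 659.7 and 695 in WT Sor, 730.4, 741, 711 and 793 in WNK2- Ctr and 1134, 1008, 1339.7 and 1023 in WNK2- Sor, and its interaction of 1.80 (SE 0.17, adjusted p = 1.61e-06) became -0.70, also called, with the alternative isotonic group.

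IL1B, the cytokine interleukin-1 beta, rose in both genotypes, from 134 ± 33.05 to 227 ± 32.9 in WT and from 721 ± 28.4 to 2614 ± 54.9 in WNK2- cells, with an interaction of 1.09 (SE 0.18, adjusted p = 0.000669); with the alternative isotonic group it was 0.41 and did not pass. IL1A, the related interleukin-1 alpha, gave 0.74 (SE 0.39, adjusted p = 0.214). RIPK2, a kinase downstream of NOD receptors, gave 0.69 (SE 0.16, adjusted p = 0.00772) and SOD2, a mitochondrial superoxide dismutase induced by NF-kB, 0.59 (SE 0.11, adjusted p = 0.00228), the ubiquitin ligase BIRC3 0.90 and the deubiquitinase CYLD 0.80, both called, while NFKB1 itself gave 0.28 (SE 0.10, adjusted p = 0.0706), which did not pass. Against the alternative isotonic group RIPK2, SOD2, BIRC3, CYLD and NFKB1 gave 0.30, -0.05, -0.13, 0.51 and -0.09, and none of these passed. C3, the central complement component, had 5476, 5319, 5145 and 5729.6 normalized counts in the libraries labelled WT Ctr against 2260.5, 2476, 2348 and 2393 in WT Sor, and rose in WNK2- cells from 279 ± 9.75 to 403 ± 60.7. Its interaction of 1.73 (SE 0.13, adjusted p = 7.58e-08) became 0.06, not passing, with the alternative isotonic group.

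The promoters are shown for 5 named genes that were picked for their known regulatory elements. In WNK2- cells TNFAIP3, CXCL8 and MT2A rose with sorbitol, and EGR1 and VCAM1 fell. Each sequence is the 250 bases before the RefSeq transcription start (GRCh38.p14, plus strand), at chr6:137867009-137867258 for TNFAIP3, chr4:73740319-73740568 for CXCL8, chr16:56608334-56608583 for MT2A, chr5:138465229-138465478 for EGR1 and chr1:100719492-100719741 for VCAM1. Capitals mark matches, on either strand, to the NF-kB site, the serum response element (CArG box), the interferon-stimulated response element, the metal response elements TGCACNC and TGCGCNC, the AP-1 site TGANTCA and the tonicity element core TGGAAA. The NF-kB pattern was GGGRNWYYCC, where R is A or G, W is A or T, Y is C or T and N is any base. Near matches to it were not marked, such as tggaatttcc in CXCL8 and gggtttcccc in VCAM1. A promoter without a marked NF-kB match may therefore still hold a variant of the site.
TNFAIP3: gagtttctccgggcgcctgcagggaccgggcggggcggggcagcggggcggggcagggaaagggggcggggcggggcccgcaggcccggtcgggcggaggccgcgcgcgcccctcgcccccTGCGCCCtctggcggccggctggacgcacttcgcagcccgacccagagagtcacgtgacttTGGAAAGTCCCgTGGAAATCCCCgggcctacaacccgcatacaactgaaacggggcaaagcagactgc
CXCL8: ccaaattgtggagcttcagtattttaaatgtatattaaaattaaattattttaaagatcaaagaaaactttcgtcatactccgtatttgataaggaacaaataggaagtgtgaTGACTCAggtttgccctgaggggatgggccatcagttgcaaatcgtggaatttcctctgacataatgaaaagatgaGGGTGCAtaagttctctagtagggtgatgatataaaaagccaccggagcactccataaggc
MT2A: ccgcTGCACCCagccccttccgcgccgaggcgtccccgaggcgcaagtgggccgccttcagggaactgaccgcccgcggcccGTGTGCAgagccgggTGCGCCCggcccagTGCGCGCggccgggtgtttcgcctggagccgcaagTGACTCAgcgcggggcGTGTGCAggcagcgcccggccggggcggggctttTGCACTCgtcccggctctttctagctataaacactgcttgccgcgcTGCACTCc
EGR1: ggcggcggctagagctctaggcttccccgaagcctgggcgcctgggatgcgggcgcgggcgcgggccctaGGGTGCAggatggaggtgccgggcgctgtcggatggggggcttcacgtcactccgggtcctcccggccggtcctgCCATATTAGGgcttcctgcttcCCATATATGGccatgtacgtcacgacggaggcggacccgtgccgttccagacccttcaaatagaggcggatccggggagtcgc
VCAM1: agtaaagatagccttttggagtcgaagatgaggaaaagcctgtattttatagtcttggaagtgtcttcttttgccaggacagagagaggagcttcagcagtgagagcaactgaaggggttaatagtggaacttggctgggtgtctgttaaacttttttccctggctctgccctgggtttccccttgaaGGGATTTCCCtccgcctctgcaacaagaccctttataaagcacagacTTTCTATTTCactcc
TNFAIP3 held a pair of NF-kB matches, 58 to 67 and 46 to 55 bases before the start, each overlapped by a tonicity core, and VCAM1 held an NF-kB match at 53 to 62 and an interferon-stimulated match at 6 to 15. EGR1 held serum response elements at 96 to 105 and at 74 to 83. MT2A held 7 metal response elements and an AP-1 site at 98 to 104, and CXCL8 an AP-1 site at 131 to 137. A metal response element was also found in CXCL8 at 55 to 61, in TNFAIP3 at 123 to 129 and in EGR1 at 174 to 180. Among 35116 RefSeq promoters of this length, 5.21% held the NF-kB site, 1.16% the serum response element, 3.02% the interferon-stimulated element, 9.87% TGCACNC, 16.8% TGCGCNC, 6.57% TGANTCA and 18.0% TGGAAA. The NF-kB match and the metal response element were thus each present both in promoters whose genes rose in WNK2- cells and in one whose gene fell. For TNFAIP3 the bases after the RefSeq start did not match the beginning of a GENCODE 29 transcript, as they did for the other 4, so its distances hold for the RefSeq start only. A match describes letters in this window and does not show that a factor is bound.

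MT2A, a metallothionein that binds zinc and copper and is induced by metals and stress, had 12748, 15864, 11983 and 10238 normalized counts in the libraries labelled WT Ctr and 6578, 6785, 6019.5 and 7009 in WT Sor. The WNK2- libraries had 10508, 8784, 7378 and 8692 in Ctr and 23703, 20906, 23686 and 21198 in Sor. It fell in WT cells and rose in WNK2- cells, without overlap in either, and the interaction was 2.29 (SE 0.17, adjusted p = 5.93e-08). Under the alternative isotonic group the interaction passed at 1.17, although the change in WT cells then was 0.16 and did not pass.

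Immediate early and AP-1 genes, which respond quickly to growth factor signalling, rose in WT cells (14 of 25 higher and 0 lower, against 14.5% and 15.4% of all genes) and moved both ways in WNK2- cells (6 higher and 3 lower). The interaction was positive for 2 and negative for 7 (36% called, against 12.5% of all genes), with a median of -0.24; with the alternative isotonic group 3 were positive and 3 negative (median 0.04). EGR1, a zinc finger transcription factor induced through serum response elements, had 2103, 1543, 1613 and 2213 normalized counts in the libraries labelled WT Ctr and 3506, 4014, 3427 and 3225 in WT Sor. In WNK2- cells the counts were 326, 311, 356 and 424 in Ctr and 122, 97.2, 145 and 100.3 in Sor. It rose in WT and fell in WNK2- cells, with no overlap in either (interaction -2.54, SE 0.20, adjusted p = 1.32e-07, alternative -2.07, called).

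KLF9, a Krüppel-like factor known as a glucocorticoid target, moved in the same opposed way. Its counts were 1537, 1641, 1799 and 1713 in the libraries labelled WT Ctr and 2831, 2658, 2702 and 2829 in WT Sor, against 814, 889, 1023 and 867 in WNK2- Ctr and 338, 319.8, 409 and 335 in WNK2- Sor (interaction -2.08, SE 0.13, adjusted p = 6.64e-09). With the alternative isotonic group the interaction was -1.09 and called, but the change in WT cells was then -0.27, the same direction as in WNK2- cells. FOS, a subunit of AP-1, changed by 1.54 in WT cells, which was called, and by -0.31 in WNK2- cells, which was not (interaction -1.85, alternative -1.41, both called). The Sprouty and Spred inhibitors of growth factor signalling, SPRY1 (-2.28), SPRY2 (-0.55), SPRY4 (-0.57) and SPRED2 (-0.57), were all called, and none passed with the alternative (-0.60, 0.09, 0.27 and -0.18). The positive members, the ERK phosphatase DUSP5 (0.70) and the factor KLF6 (0.42), passed with it (0.68 and 0.45).

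**Figure D4:**
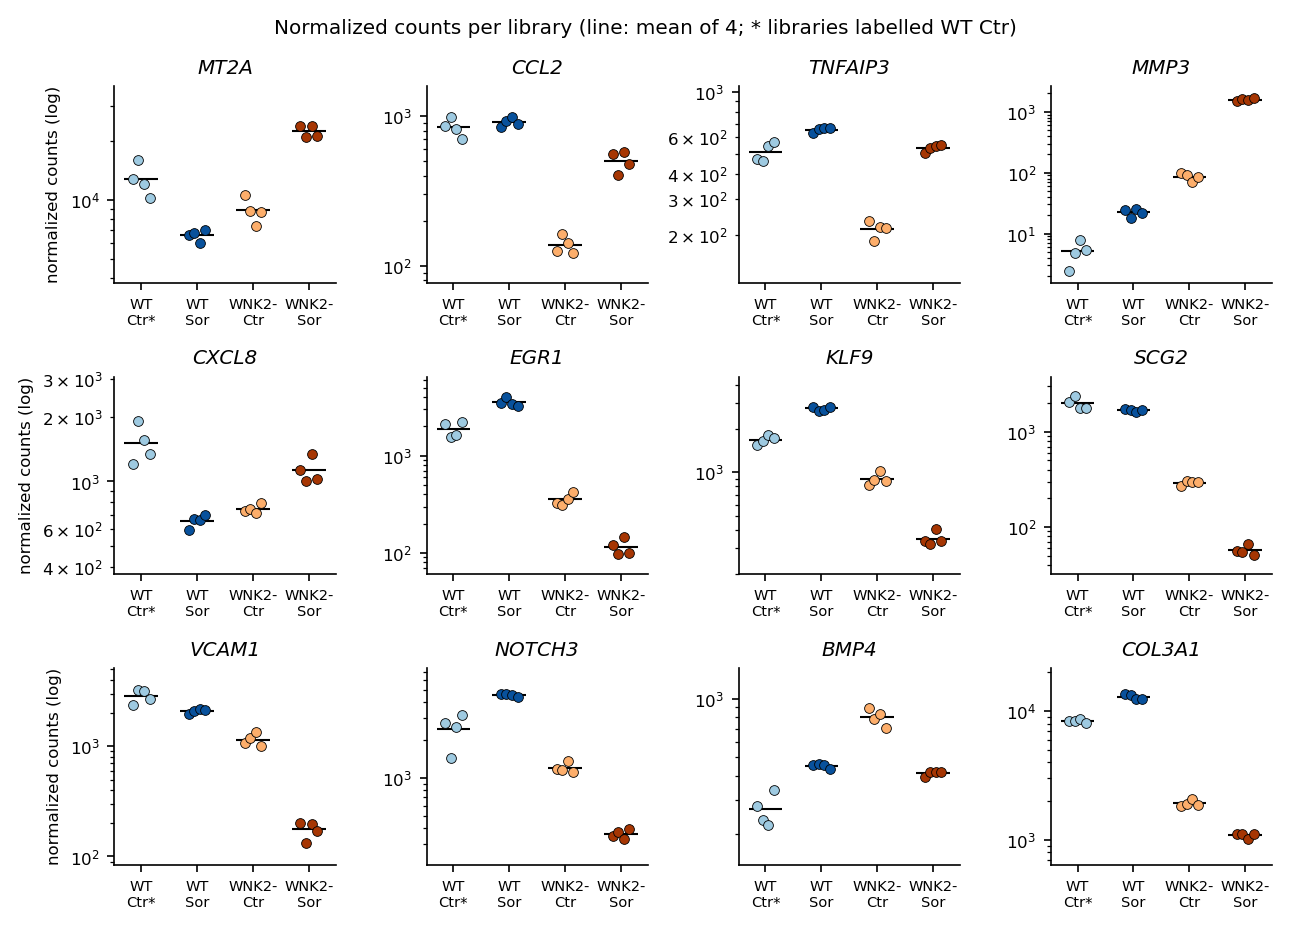
Normalized counts of 12 named genes in each library (log axis; points: libraries; lines: means of 4), by group. MT2A and EGR1 move in opposite directions with sorbitol in the 2 genotypes, CCL2 rises and SCG2 and VCAM1 fall more in WNK2- than in WT cells, and MMP3 rises in both.

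The adhesion molecule VCAM1 and the secretory granule protein SCG2 fell more in WNK2- than in WT cells. VCAM1 had 2387, 3219, 3179 and 2676 normalized counts in the libraries labelled WT Ctr and 1968, 2099.6, 2194 and 2147 in WT Sor. In WNK2- cells it fell from 1064, 1189, 1341 and 1012 to 199.9, 134, 198 and 172, and the interaction was -2.26 (SE 0.18, adjusted p = 1.23e-07, alternative -1.69, called). SCG2 fell in WT cells from 1987 ± 268 to 1671 ± 45.05 and in WNK2- cells from 268, 306, 298 and 297 to 55.9, 54.6, 66.1 and 51.6, with an interaction of -2.11 (SE 0.14, adjusted p = 2.8e-08, alternative -1.40, called). SSTR1, a somatostatin receptor, had the largest negative interaction among the genes named for size, -3.02 (SE 0.22, adjusted p = 5.19e-08). It rose in WT cells from 25.9, 43.7, 33.2 and 37.9 to 259, 204, 309.6 and 268 and stayed at 258, 230.0, 253 and 303 in WNK2- Ctr and 251, 235, 215 and 249 in WNK2- Sor, groups that overlapped; the alternative was -1.22, called.

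Among the largest positive interactions, ESM1, a proteoglycan secreted by endothelial cells, rose in WNK2- cells from 310.1, 348, 273 and 324 to 1926, 1822, 1898 and 1829. It had 49.6 ± 19.3 in the libraries labelled WT Ctr and 62.3 ± 11.7 in WT Sor, and the interaction was 2.22 (SE 0.25, adjusted p = 1.22e-05). ESM1 was higher by 3.13 in WT Sor than in the alternative isotonic group, and the interaction with that group was -0.56, not passing. FGF5, a fibroblast growth factor, rose in WNK2- cells from 249 ± 23.6 to 674 ± 73.7 and had 100.3 ± 25.9 and 66.2 ± 17.4 in the WT groups (interaction 2.03, SE 0.25, adjusted p = 2.87e-05, alternative 0.54, not passing). FGF2, a growth factor stored in cartilage matrix, gave -0.99 (SE 0.30, adjusted p = 0.0387); without any 1 of 10 libraries that call was lost (adjusted p 0.00589 to 0.0830 when each library was left out).

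Integrin subunits, the receptors that bind cells to matrix, had 1 positive and 4 negative interactions among 18 (median -0.42). ITGA11, a collagen-binding subunit, had the smallest p of all named genes. It rose in WT cells from 1640.5, 1342, 1442 and 1464 to 3393, 3413, 3879 and 3542 and fell in WNK2- cells from 795, 901, 875 and 798 to 472, 509, 447 and 528 (interaction -2.06, SE 0.12, adjusted p = 4.59e-09). Against the alternative isotonic group the change of ITGA11 in WT cells was -0.02 and did not pass, and the interaction was -0.76, called. ITGB8, a subunit that activates latent TGF-beta, rose in WNK2- cells from 454 ± 52.96 to 1157 ± 137 and had 1018 ± 205 and 993 ± 32.1 in the WT groups (interaction 1.38, SE 0.18, adjusted p = 4.09e-05, alternative 1.72, called). The other negative subunits were ITGA2B (-0.91), ITGA3 (-0.44) and ITGB5 (-0.35), and of these ITGA2B and ITGB5 passed with the alternative (-0.79 and -0.36).

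Developmental signalling lists held more negative than positive interactions against the libraries labelled WT Ctr. In TGF-beta and BMP signalling 11 of 38 tested genes had a negative and 5 a positive interaction (11 and 4 with the alternative isotonic group). In WNT signalling 14 of 41 were negative and 2 positive (7 and 0 with the alternative, where 3 were positive at an unadjusted p under 0.05). In NOTCH signalling 4 of 27 were negative and 1 positive (2 and 2). The median interactions were -0.21, -0.40 and -0.12, and the share called negative over all genes was 6.7%.

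BMP4, a bone morphogenetic protein, had 279.8, 235, 221 and 337 normalized counts in the libraries labelled WT Ctr and 452, 460.5, 453 and 434 in WT Sor. WNK2- cells had 899, 784, 830.0 and 705 in Ctr and 393, 416, 417 and 419 in Sor. The genotypes thus met: WNK2- cells were above WT cells in isotonic media and close to them with sorbitol (interaction -1.72, SE 0.16, adjusted p = 1.1e-06, alternative -1.87, called). SMAD6, an inhibitor of BMP signalling and itself a target of it, followed the same course, from 393 ± 89.6 to 715 ± 29.2 in WT and from 1425 ± 37.4 to 728 ± 55.9 in WNK2- cells (interaction -1.84, SE 0.17, adjusted p = 8.87e-07, alternative -1.13, called). BMP2 rose in both genotypes, from 74.1 ± 10.3 to 247 ± 17.3 and from 27.6 ± 8.22 to 48.5 ± 4.37, with an interaction of -0.92 (SE 0.25, adjusted p = 0.0211) that was lost without WNK2- Ctr replicate 1 (-0.73, adjusted p = 0.0504; range 0.0132 to 0.0504 when each library was left out). GREM1, a secreted BMP antagonist, had 2625, 2943, 3097 and 3211 in the libraries labelled WT Ctr, 2040.4, 2076, 2133 and 1985 in WT Sor, 6578, 6281, 6069.8 and 7077 in WNK2- Ctr and 9753, 9191, 10989 and 10179.8 in WNK2- Sor. Its interaction of 1.15 (SE 0.11, adjusted p = 1.82e-06) turned to -0.31, not passing, with the alternative isotonic group. GREM1 was higher by 0.94 in WT Sor than in that group. Of further members, the targets ID1 and ID3 gave -0.97 and -0.81 and the inhibitor SMAD7 -1.02, of which ID1 and SMAD7 passed with the alternative (-0.51 and -0.53). GDF15, a stress-induced cytokine of the family, gave -1.54 (alternative -0.62, called). Other positive members were the co-receptor TGFBR3 (1.15) and the activin subunits INHBA (0.40) and INHBB (1.32); TGFBR3 passed with the alternative (1.40), and INHBA was called with the opposite sign (-0.90).

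WNT5A, a ligand of non-canonical WNT signalling, rose in WT cells from 5774, 6571, 7283 and 6789 to 10863, 11413, 11927 and 11039.8 and fell in WNK2- cells from 3908, 4501, 4703 and 4588 to 2807, 2319, 2680.4 and 2708 (interaction -1.53, SE 0.12, adjusted p = 1.32e-07, alternative -0.98, called). FRZB, a secreted WNT antagonist first purified from cartilage, rose in WT cells from 1863 ± 118 to 2863 ± 92.2 and had 784 ± 57.6 and 724 ± 52.3 in the overlapping WNK2- groups (interaction -0.74, SE 0.11, adjusted p = 0.000242, alternative -0.95, called). NOTCH3, a NOTCH receptor, had 2725, 1431, 2543 and 3157 in the libraries labelled WT Ctr and 4663, 4696, 4614 and 4407 in WT Sor, against 1168, 1151, 1356 and 1109.9 in WNK2- Ctr and 347, 369, 324 and 389 in WNK2- Sor. Its interaction was -2.64 (SE 0.22, adjusted p = 3.52e-07). NOTCH3 was lower in WT Sor than in the alternative isotonic group (-1.01), and the interaction with that group was -0.73, called. JAG1, a NOTCH ligand, gave -0.89 (SE 0.10, adjusted p = 1.8e-05), and 0.08, not passing, with the alternative. HES1, a transcriptional target of NOTCH, gave -1.05 (alternative -0.84, called) and the co-activator MAML2 -1.03 (alternative -0.18, not passing), and the one positive member was the NOTCH inhibitor NUMB (0.29, alternative 0.17, not passing). In the WNT list, 4 frizzled receptors (FZD2, FZD7, FZD8 and FZD9) and the co-receptor LRP6 were negative, between -1.19 for FZD8 and -0.43 for FZD2, and none passed with the alternative. The ligand WNT6 gave -2.17 (alternative -1.17, called). The positive members were the factor LEF1 (1.90, alternative 1.76, not passing) and WNT5B (0.65), which was called with the opposite sign with the alternative (-0.73).

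Of 17 tested cartilage matrix genes, 5 had a negative and 2 a positive interaction. Their median change with sorbitol was 0.42 in WT and -0.30 in WNK2- cells, and the median interaction was -0.72 (-0.19 with the alternative isotonic group, 2 positive and 2 negative). COL3A1, a fibrillar collagen chain, is not in that list. It had 8365, 8323, 8745 and 8147 normalized counts in the libraries labelled WT Ctr and 13487, 13239, 12419 and 12493 in WT Sor. In WNK2- cells it had 1842, 1898, 2079.9 and 1879 in Ctr and 1111, 1115, 1021 and 1110.5 in Sor. The interaction of -1.44 (SE 0.09, adjusted p = 1.59e-08) became -0.21, not passing, with the alternative isotonic group. COL3A1 was lower in WT Sor than in that group (-0.61). COL9A2, a chain of the collagen IX that coats cartilage fibrils, and MATN3, a cartilage matrix linker, were low in all groups. COL9A2 fell in WNK2- cells from 39.1 ± 9.47 to 16.3 ± 3.80 (interaction -1.82, SE 0.35, adjusted p = 0.00237) and MATN3 from 47.8 ± 7.31 to 20.7 ± 4.80 (interaction -1.51, SE 0.32, adjusted p = 0.00447), and both passed with the alternative (-1.28 and -1.06). The remaining called members were COL9A3, another collagen IX chain (-1.36), the cartilage intermediate layer protein CILP2 (-1.17), the small proteoglycan BGN (-0.72) and, positive, the link protein HAPLN1 (0.67), and none passed with the alternative (-0.03, -0.49, -0.20 and -0.14).

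The main cartilage collagen COL2A1 and the proteoglycan ACAN gave 1.43 (SE 0.45, adjusted p = 0.045) and -1.21 (SE 0.57, adjusted p = 0.168). COL2A1 had 4.83, 5.59, 6.16 and 8.50 and 9.79, 15.3, 7.90 and 16.2 normalized counts in the overlapping WNK2- groups, and its call was lost without any 1 of 13 libraries (adjusted p 0.0212 to 0.0955 when each library was left out), while the alternative isotonic group gave 2.55, called. The chondrocyte marker sum was lower in WNK2- than in WT libraries in both media, mostly through HAPLN1, as given above. The part of that sum in these interactions was not tested. Of 13 chondrocyte and hypertrophy regulators, 3 had a negative and 0 a positive interaction (edgeR; 1 positive at an unadjusted p under 0.05, 0 by DESeq2). RUNX2, a driver of chondrocyte hypertrophy, had 684, 835, 877 and 803 and 795, 762, 823 and 857 in the overlapping WT groups and fell in WNK2- cells from 391, 449, 448 and 497 to 215, 244, 262 and 259.9 (interaction -0.88, SE 0.14, adjusted p = 0.0004, alternative -1.18, called). RUNX3, which acts beside it, gave -0.81 (SE 0.12, adjusted p = 0.00028, alternative -0.70, called), and HDAC4, a repressor of RUNX2, gave -0.57 (alternative -0.30, not passing).

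Matrix proteases and their inhibitors moved both ways, with 4 positive and 5 negative interactions among 24 (median -0.29, and 0.13 with GC content and length corrected). MMP3, a stromelysin that degrades proteoglycans and activates other proteases, had only 2.47, 4.85, 7.75 and 5.42 normalized counts in the libraries labelled WT Ctr and 24.4, 18.3, 24.9 and 21.9 in WT Sor. In WNK2- cells it rose from 100.5, 91.2, 69.5 and 83.3 to 1529, 1603, 1551 and 1655, and no group overlapped another. The interaction was 2.11 (SE 0.37, adjusted p = 0.00106) and 1.76, called, with the alternative isotonic group. MMP13, the main collagenase of cartilage, fell in WT cells from 246 ± 20.5 to 122 ± 11.9 and had 55.03 ± 13.9 and 56.8 ± 10.3 in the overlapping WNK2- groups (interaction 1.05, SE 0.24, adjusted p = 0.00753, alternative 0.11, not passing). MMP9 rose in both genotypes and its interaction was 0.81 (SE 0.28, adjusted p = 0.0605); without WT Ctr replicate 2 (0.94, adjusted p = 0.0228), WT Ctr replicate 3 (0.93, adjusted p = 0.0323) or WNK2- Sor replicate 3 (0.92, adjusted p = 0.0462) it passed, over a range of 0.0228 to 0.130 when each library was left out.

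ADAMTS5, an aggrecanase, rose in WT cells from 176 ± 48.8 to 306 ± 29.1 and had 38.7 ± 9.50 and 29.2 ± 4.43 in the overlapping WNK2- groups (interaction -1.22, SE 0.29, adjusted p = 0.0108, alternative -1.08, called). MMP16, a membrane-bound protease, rose in WT cells from 941 ± 218 to 2877 ± 99.3 and had 538 ± 44.96 and 461 ± 51.1 in WNK2- cells, with an interaction of -1.84 (SE 0.18, adjusted p = 2.76e-06) that did not pass with the alternative (-0.59). HTRA1, a serine protease of matrix proteins, fell in WNK2- cells from 533 ± 36.5 to 284 ± 9.40 (interaction -1.05, SE 0.13, adjusted p = 4.19e-05, alternative -0.29, not passing). The other positive members were the secreted proteases ADAMTS9 (2.55, alternative 2.00, called) and ADAMTS1 (0.52, alternative 0.44, called). The other negative ones were ADAMTS15 (-1.20) and MMP17 (-0.70), neither of which passed with the alternative (-0.89 and -0.25).

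Interferon-induced genes had 2 positive and 4 negative interactions among 25, with a median of 0.01 (-0.25 with the alternative isotonic group). OASL, an antiviral effector, fell in WT cells from 826, 1183, 818 and 611 to 485, 443, 541 and 556 and rose in WNK2- cells, where it was far lower, from 19.3, 25.1, 22.9 and 20.4 to 39.8, 54.6, 54.3 and 47.8 (interaction 1.91, SE 0.27, adjusted p = 0.000129, alternative 1.46, called). BST2, which tethers budding viruses, fell in WNK2- cells from 71.5 ± 9.55 to 26.2 ± 12.2 (interaction -1.76, SE 0.32, adjusted p = 0.00124, alternative -1.16, not passing). IFI44 was the other positive member (1.09), and IRF9, a subunit of the interferon-activated factor ISGF3 (-1.40), IFI44L (-1.17) and MX2 (-1.04) were negative; all 4 passed with the alternative (0.55, -1.42, -0.96 and -1.44). In the circadian clock 2 interactions were positive and 2 negative among 21 (19% called, against 12.5% of all genes), and none was called by edgeR with the alternative isotonic group (2 positive and 2 negative at an unadjusted p under 0.05). BHLHE41, a clock repressor, fell in WT cells from 264 ± 93.4 to 138 ± 16.02 and rose in WNK2- cells from 82.1 ± 10.9 to 131 ± 15.3 (interaction 1.61, SE 0.28, adjusted p = 0.000869). NPAS2, a paralogue of CLOCK, rose in both genotypes (interaction 0.64, SE 0.13, adjusted p = 0.00313). The negative members were the repressors PER1 (-0.75) and BHLHE40 (-0.39).

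Of 59 respiratory chain and ATP synthase subunits, 39 fell in WT cells and 1 in WNK2- cells, with median changes of -0.45 and -0.13; over all genes 15.4% fell in WT and 8.68% in WNK2- cells. The interaction itself was called for 9, all positive (median 0.31). That is 15.3% of them, against 5.75% of all genes called positive and 12.5% called in either direction. With the alternative isotonic group it was called for none by edgeR (5 positive at an unadjusted p under 0.05, median 0.13). Of 70 cytosolic ribosomal proteins, 60 fell in WT and 35 in WNK2- cells (medians -0.64 and -0.38). The 6 with a called interaction, all positive, were 8.57% of them (median 0.29, and 1 called with the alternative). Over all genes 5.75% were called positive and 12.5% in either direction. ATP5F1E, a subunit of ATP synthase, had 6224, 8109, 4246 and 3953 normalized counts in the libraries labelled WT Ctr, 2838, 3202, 2381 and 3303 in WT Sor, and 3989.7 ± 665 and 3857 ± 283 in WNK2- Ctr and Sor (interaction 0.89, SE 0.25, adjusted p = 0.0249). NDUFB1, a subunit of complex I, gave 0.79 (SE 0.22, adjusted p = 0.0239). The call of ATP5F1E was lost without any 1 of 5 libraries and that of NDUFB1 without any 1 of 6, with adjusted p up to 0.0628 and 0.0605.

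Glycolysis and hypoxia genes had 2 positive and 6 negative interactions among 33; with the alternative isotonic group 11 were positive and 2 negative. DDIT4, an inhibitor of mTOR complex 1 induced by stress, had 1146, 491, 567 and 777 normalized counts in the libraries labelled WT Ctr and 1710.3, 1677, 1824 and 1859 in WT Sor. In WNK2- cells it fell from 659.9, 604, 601 and 608 to 296, 388, 287 and 335 (interaction -2.17, SE 0.25, adjusted p = 1.69e-05, alternative -0.98, called). The hypoxia-inducible factors EPAS1 and HIF1A gave -0.81 (SE 0.11, adjusted p = 6.39e-05) and -0.82 (SE 0.26, adjusted p = 0.0424), and neither passed with the alternative (0.06 and -0.09). The call of HIF1A was also lost without any 1 of 11 libraries (adjusted p 0.00904 to 0.0858 when each library was left out). CA9, a carbonic anhydrase induced by hypoxia, gave -1.57 and VEGFA, an angiogenic growth factor, -0.44, and neither passed with the alternative (-0.22 and -0.25). The positive members were the glycolytic enzyme GAPDH (0.42, alternative 0.37, not passing) and BNIP3, a mitophagy receptor (0.40, alternative 0.91, called).

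Targets of the unfolded protein response and of ATF4 had 0 positive and 6 negative interactions among 32 by edgeR (2 positive at an unadjusted p under 0.05, 1 by DESeq2), and 1 and 5 with the alternative isotonic group. CHAC1, an ATF4 target that degrades glutathione, rose in WT cells from 328, 107, 165 and 228 to 746, 727, 718 and 779.8 and had 326 ± 27.2 and 369 ± 59.3 in the overlapping WNK2- groups (interaction -1.67, SE 0.29, adjusted p = 0.00102, alternative -0.99, called). PSAT1, an enzyme of serine synthesis, gave -0.54 (SE 0.12, adjusted p = 0.00544, alternative -0.54, called). SLC7A11, the cystine transporter, gave -1.64 (alternative -0.71, not passing). Cholesterol biosynthesis genes had 3 positive and 3 negative interactions among 23 (26.1% called, against 12.5% of all genes). Against the alternative isotonic group 0 were positive by edgeR (none at an unadjusted p under 0.05 either) and 6 negative. ACAT2, a cytosolic thiolase that begins the pathway, gave 0.61 (SE 0.15, adjusted p = 0.0107, alternative 0.03, not passing); it lies across from SOD2 and TCP1 on the opposite strand, whose reads could not be told apart from its own if strand was not used.

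DNA replication and mitosis genes fell with sorbitol in both genotypes, 33 of 43 in WT and 30 in WNK2- cells (medians -0.50 and -0.36), and 5 interactions were positive and 3 negative. With the alternative isotonic group 1 was positive and 15 were negative. BUB1, a mitotic checkpoint kinase, fell in WT cells from 2968 ± 407 to 1667 ± 57.8 and in WNK2- cells from 3048 ± 138 to 2490.1 ± 296 (interaction 0.54, SE 0.14, adjusted p = 0.0141, alternative -0.26, not passing). E2F2, a cell cycle transcription factor, gave -0.51 (SE 0.13, adjusted p = 0.0187, alternative -0.73, called). The cyclins CCNA2, CCNB1, CCNB2 and CCND1 had positive interactions of 0.37, 0.53, 0.59 and 0.52, and all 4 estimates were negative with the alternative, where CCNB2 (-0.42) and CCND1 (-0.60) were called. The other negative members were CCNE1 (-0.40) and the inhibitor CDKN1C (-0.71). Contractile and YAP/TEAD target genes had 4 positive and 7 negative interactions among 29 (0 and 9 with the alternative). CNN1, the smooth muscle protein calponin, had 528, 261, 285 and 371 and 337, 376, 270.1 and 333 in the overlapping WT groups and fell in WNK2- cells from 584, 546, 511 and 489 to 133, 219, 121 and 155 (interaction -1.63, SE 0.28, adjusted p = 0.000779, alternative -1.52, called). F3, tissue factor, gave 0.88 (SE 0.14, adjusted p = 0.000549, alternative -0.18, not passing). The other positive members were the cytoskeletal actins ACTB (0.59) and ACTG1 (0.48) and the YAP target ANKRD1 (0.63), and none passed with the alternative (0.02, 0.08 and -0.36).

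**Figure D5:**
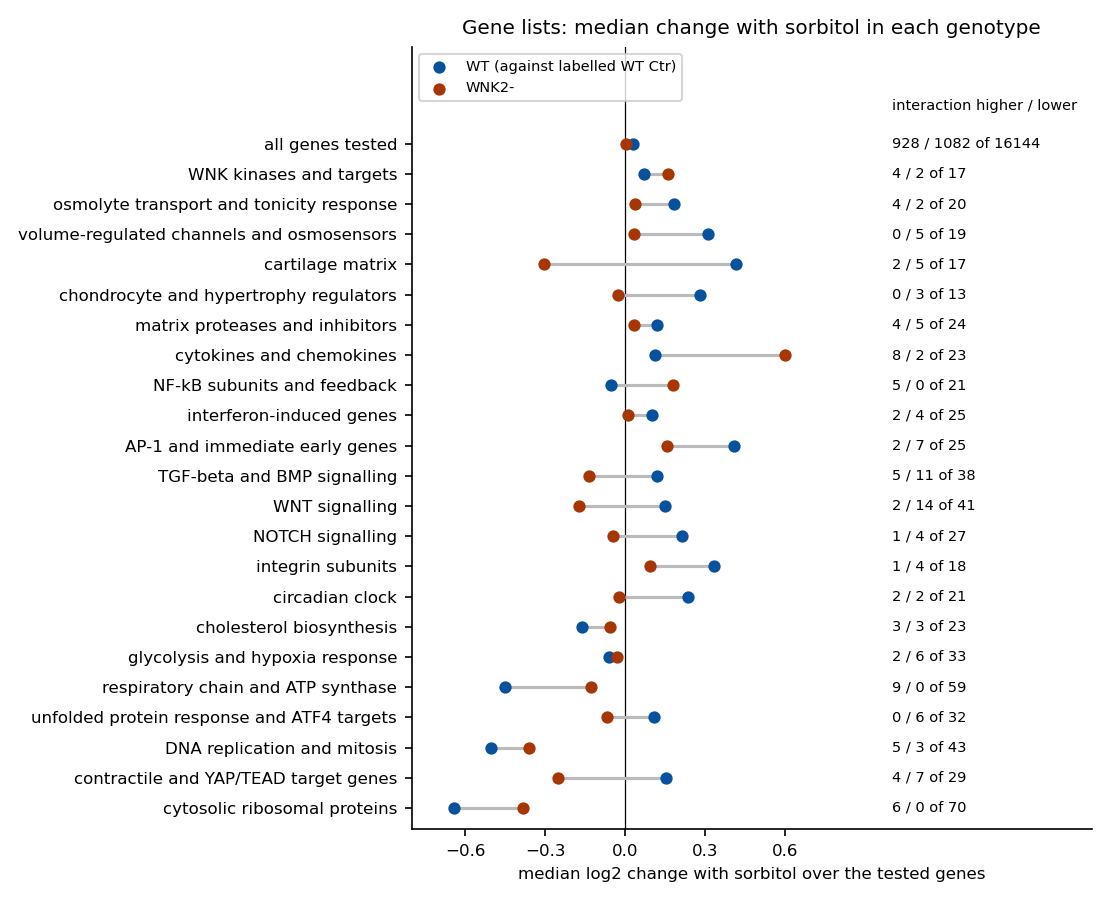
Median log2 change with sorbitol over the tested genes of each list, in WT cells (blue, against libraries labelled WT Ctr) and WNK2- cells (brown); at the right, the number of genes with a called positive and negative interaction of those tested. The cartilage matrix, WNT and contractile lists lie right of 0 in WT and left of 0 in WNK2- cells, and the ribosomal, respiratory chain and replication lists lie left of 0 in both.

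Markers of other cell types were measured in the same libraries. The 8 endothelial markers had a summed level of 40.7 to 44.2 CPM in the libraries labelled WT Ctr and of 70.0 to 79.1 CPM in WT Sor. The WNK2- libraries had 31.4 to 36.3 CPM in Ctr and 54.6 to 65.0 CPM in Sor, so the sum was higher with sorbitol in both genotypes without overlap. Among the 7 tested, 1 had a called interaction, TIE1 (0.68), an endothelial receptor, and it was called with the opposite sign with the alternative isotonic group (-1.53). PECAM1, an endothelial adhesion molecule, held most of the WT signal, while KDR, TEK and VWF stayed below 4 CPM in every library. CDH5 did not rise with the sum. Its means were 10.2 and 9.62 CPM in WT Ctr and Sor, and 13.1 and 11.5 in WNK2- Ctr and Sor. In WNK2- cells the rise of the sum lay mostly in PECAM1 (10.2 to 24.8) and TIE1 (4.50 to 13.5). Leukocyte markers summed to 6.45 to 18.4 CPM over the 4 groups, with PTPRC, the defining marker, below 1 CPM in every library. CD14 held most of the WT sum, with means of 8.31 and 10.6 CPM in Ctr and Sor. It had 2.18 and 1.93 in WNK2- Ctr and Sor. Of 3 tested, 1, the macrophage receptor CSF1R, had a called interaction (-1.11). Epithelial markers were nearly all KRT8 and KRT18, and none of the 6 tested had a called interaction by edgeR (1 negative at an unadjusted p under 0.05, 1 by DESeq2). The part of these markers in the interactions of ESM1 and VCAM1, genes also used by endothelial cells, was not tested.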

How the data were processed

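RNA-seq of 24 samples of T/C-28a2 chondrocytes was used, of which 16 libraries enter the comparison. The deposited files hold raw counts per Ensembl gene. The authors obtained these counts from poly(A) libraries by alignment to GRCh38 and counting with HTSeq; the submitters' processing notes name HISAT2 2.2.1, HTSeq 2.0.2, FastQC 0.11.9 and DESeq2 1.38.3. The annotation and the strand setting are not given in the sources used here. Groups and replicate numbers came from the sample titles. The study's methods call the 4 libraries of a group biological replicates; all come from 1 line per genotype, and p-values measure the spread between these libraries.

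Symbols were found for 42300 of 62703 gene IDs in the RefSeq gene table, and no row lacked a gene. The 16 libraries were fitted together in edgeR 4.0.16 (R 4.3.3): filterByExpr with a minimum count of 10 and a minimum total of 15 left 16144 genes, scaled by TMM, with 1 mean per group and the quasi-likelihood test, and p-values adjusted by Benjamini-Hochberg over all genes (threshold 0.05). The standard error is the log2 value divided by the square root of F. Normalized counts are counts scaled to the mean effective library size, given as the mean ± SD of 4 libraries. CPM values compare 1 gene between libraries and are not corrected for length. Tested on simulated data for the interaction (15881 genes), the test recovered 66.7% of changes of 1 and 82% of changes of 2 on the log2 scale, with 5.73% false calls. The simulation gave every group the same spread per gene and changed few genes. In the data the libraries labelled WT Ctr differed most among themselves and far more genes were called. The simulated rates therefore need not hold for these libraries.

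Genes were named by a rule: the 5 positive and 5 negative interactions with the smallest p and the 4 and 4 with the largest size among called genes of at least 3 log2 CPM, the 6 smallest p among genes called in opposite directions in both genotypes, up to 2 called members of each gene list, and 20 genes discussed in the study, which are not independent evidence since the study chose them on these samples. Not every gene that the rule named is reported here. The comparison, members, lists and alternatives were chosen with earlier results of these data known. Alternatives were DESeq2 1.42.0, RLE and upper-quartile factors, other filters on low counts, all 24 libraries in one fit, the replicate number as a block, each library left out in turn, thinning to the smallest total, a spline correction for GC content and length, and the libraries labelled WNK2 trans Ctr as the WT isotonic group. Promoters are RefSeq sequences of GRCh38.p14. Total counts per library, 14153002 to 25664619, set the precision.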

Additional observations from a re-analysis of the deposited data

Results flagged for a closer look

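The sorbitol responses of the genotypes differed by the interaction test for 60 of the 66 named genes, and each value is its interaction on the log2 scale against the libraries labelled WT Ctr. Apart from the genes the study discussed, only called genes were named, so the 60 is largely set by the naming rule. Sorbitol lowered the level in WT cells and raised it in WNK2- cells for MT2A (2.29), FGF5 (2.03), OASL (1.91), CXCL8 (1.80), C3 (1.73), BHLHE41 (1.61), GREM1 (1.15) and F3 (0.88). The reverse held for NOTCH3 (-2.64), EGR1 (-2.54), DDIT4 (-2.17), KLF9 (-2.08), ITGA11 (-2.06), SMAD6 (-1.84), COL9A2 (-1.82), BMP4 (-1.72), WNT5A (-1.53), COL3A1 (-1.44) and JAG1 (-0.89). A change in the same direction in both genotypes, larger in WNK2- cells where both rose or smaller where both fell, gave positive values for MMP3 (2.11), IL1B (1.09), TNFAIP3 (0.95), AKR1B1 (0.68), NPAS2 (0.64) and BUB1 (0.54). Negative values with changes in the same direction were found for VCAM1 (-2.26), SCG2 (-2.11), BMP2 (-0.92), EPAS1 (-0.81) and WNK4 (-0.47). A change called in WT cells and not in WNK2- cells went with positive values for WNK2 (2.88), MMP13 (1.05), ATP5F1E (0.89), NDUFB1 (0.79) and ACAT2 (0.61), and with negative values for SSTR1 (-3.02), MMP16 (-1.84), CHAC1 (-1.67), SLC6A9 (-1.58), ADAMTS5 (-1.22), FGF2 (-0.99), HIF1A (-0.82), FRZB (-0.74) and PSAT1 (-0.54). A change called in WNK2- cells and not in WT cells went with positive values for ESM1 (2.22), CCL2 (1.75), ITGB8 (1.38), NEDD4L (0.93), RIPK2 (0.69) and SOD2 (0.59), and with negative values for BST2 (-1.76), CNN1 (-1.63), MATN3 (-1.51), PIEZO2 (-1.41), HTRA1 (-1.05), TRPV4 (-0.97), RUNX2 (-0.88), RUNX3 (-0.81) and E2F2 (-0.51). In neither genotype alone was a change called for COL2A1 (1.43).

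In 10 of 264 groups of 4 libraries tested, 1 library stood apart from the other 3 by Dixon's criterion, which chance gives in about 1 group in 20. In normalized counts these were COL3A1 in WNK2- Sor replicate 3 (1021), MATN3 in WT Sor replicate 2 (92.8) and in WNK2- Ctr replicate 2 (58.7), BST2 in WT Sor replicate 3 (339.7) and BMP4 in WNK2- Sor replicate 1 (393). The others were DDIT4 in WNK2- Ctr replicate 1 (659.9), PSAT1 in WNK2- Sor replicate 3 (4161), ACAN and FGF2 in the library labelled WT Ctr replicate 2 (18.2 and 60.7), and HIF1A in WNK2- Ctr replicate 1 (196). Outside the 4 groups compared, the libraries labelled WNK2 trans Sor had a mean of 172 CPM of WNK2, above every WT Sor and WNK2- library.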

How the results depend on the processing

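The interaction was called for 2664 genes by DESeq2, 2012 with RLE factors, 2019 with upper-quartile factors, 2020 with no filter on low counts, 2052 with at least 10 counts in every library, 1436 with all 24 libraries in one fit and 1810 with depth thinned to the smallest total. None of the 2010 genes changed sign under these settings among those tested, and none did when 1 library was left out, where the count ran from 1277 without WNK2- Sor replicate 3 to 3288 without the library labelled WT Ctr replicate 1. Correction for GC content and length gave 3029 (3 of the 1986 genes tested there with the opposite sign) and 5150 genes changed by sorbitol in WNK2- cells, and it turned the median interactions of the osmolyte (0.29) and matrix protease lists (0.13); the cause was not tested.

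With the libraries labelled WNK2 trans Ctr as the WT isotonic group, 1307 genes were called. The interaction then turned for WNK2 (-0.44), CXCL8 (-0.70), GREM1 (-0.31), ESM1 (-0.56), SOD2 (-0.0451), JAG1 (0.0795), EPAS1 (0.0643), BUB1 (-0.26), F3 (-0.18), NFKB1 (-0.0931) and ACAN (0.16). The list medians turned for chondrocyte regulators (0.12), NF-kB (-0.0031), interferon-induced (-0.25), immediate early (0.0403), clock (0.0153), cholesterol (-0.23), glycolysis (0.31), replication (-0.28) and endothelial genes (-0.28). They also changed sign for the WNK network (-0.0427), osmolyte (0.0461) and NOTCH lists (0.0795). The correlation of the genotypes' responses across genes, 0.414, was 0.523 with that group, 0.146 with no filter on low counts, 0.319 with at least 10 counts in every library, and 0.361 to 0.439 when 1 library was left out. WNK1 and WNK3, which did not pass in any of these, had interactions near 0 whose sign varied: the interaction of WNK1 was -0.0047 with the replicate block, -0.0065 thinned and -0.091 to 0.080 without 1 library, and the interaction of WNK3 was -0.033 to 0.20 without 1 library.

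Samples with the same replicate number were not seen to deviate together in the 500 most variable genes. The correlation of their deviations from the group means had a median of 0.0192 over 24 pairs (-0.217 to 0.131). Over 72 pairs with different numbers it was -0.0068. These values show no pairing by number, but such a check on few libraries cannot exclude one. With the replicate block 1838 genes were called, and of the named genes COL2A1 lost its call. Of the 60 called named genes, 53 kept the call without each of the 16 libraries. Many were named for the smallest p, so this share does not describe called genes in general. Depth and genotype cannot be told apart beyond the thinned counts, genes with few reads such as COL2A1 are imprecise, and 1 clone stands for the genotype.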

Other observations

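Collagen chains, chosen as a family after their values were seen, had 16 negative and 1 positive interaction among 33 genes, tested as in the report (edgeR, adjusted p under 0.05), with a median of -0.70 against -0.0046 over all genes. Of all genes, 6.7% were called negative and 5.75% positive. Sorbitol changed 12 of the 33 in WT cells, all upward (14.5% of all genes rose), and raised 3 and lowered 12 in WNK2- cells (10.6% and 8.68% of all genes). COL1A1, a chain of collagen I, had 54364 ± 9239 normalized counts in the libraries labelled WT Ctr (mean ± SD, n = 4), 55779.9 ± 1629 in WT Sor, 48634 ± 3064 in WNK2- Ctr and 17984 ± 1520.3 in WNK2- Sor, an interaction of -1.47 (SE 0.14, adjusted p = 1.72e-06). COL6A3, of collagen VI, which surrounds chondrocytes, rose in WT cells from 30241 ± 5454 to 42888 ± 1836 and fell in WNK2- cells from 27580.1 ± 2502 to 14858 ± 607 (interaction -1.40, SE 0.15, adjusted p = 4.18e-06). COL4A1, of basement membrane collagen IV, fell in WNK2- cells from 15813 ± 888 to 6852 ± 549 (interaction -1.21, SE 0.12, adjusted p = 1.67e-06). All 3 passed with the libraries labelled WNK2 trans Ctr as well (-0.75, -1.05 and -0.38), where the family had 7 negative and 3 positive interactions and a median of -0.19.

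Enzymes and core proteins of heparan sulfate proteoglycans, picked by gene symbol and also chosen after their values were seen, had 9 called interactions among 20 tested by that test, all negative (median -0.54, with 6.7% of all genes negative), and 4 negative and 2 positive ones with the alternative isotonic group (median -0.24). The 20 and the medians include HS1BP3, which shares the symbol pattern but is neither such an enzyme nor a core protein (-0.03, not called). SULF1, which removes sulfate groups from heparan sulfate outside the cell, rose in WT cells from 6015 ± 461 to 18552 ± 1318 and had 153 ± 28.9 and 162 ± 19.4 in WNK2- Ctr and Sor. Its interaction of -1.54 (SE 0.16, adjusted p = 4.14e-06) was 0.03 and did not pass with the alternative. Of 3 metallothioneins tested, MT1E also had a positive interaction, 1.74 (SE 0.26, adjusted p = 0.000178), with a fall in WT cells from 2567 ± 879 to 1092 ± 113; it did not pass with the alternative (0.69).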
